A study of Mus musculus with 11 samples.

Results

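Accessible chromatin was described at 10 mouse genes that encode receptors for fibroblast growth factors, insulin-like growth factor 1, insulin and hepatocyte growth factor (*Fgfr1*, *Fgfr2*, *Fgfr3*, *Fgfr4*, *Igf1r*, *Insr* and *Met*) and Sprouty inhibitors (*Spry1*, *Spry2* and *Spry4*). A peak was a member if it overlapped the body of a listed gene, or lay within 50 kb of its transcription start site (TSS) in mm10, and each peak was given to the nearest listed gene. The rule used no measured value and found 174 of 153396 peaks. *Igf1r* held 38, *Fgfr2* 36, *Fgfr1* 19, *Fgfr3* and *Met* 14 each, *Fgfr4* 13, *Insr* and *Spry1* 11 each, and *Spry2* and *Spry4* 9 each. The rule is one of position, and a peak near a gene is not thereby shown to act on it.

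Assay for Transposase Accessible Chromatin (ATAC) sequencing, in which a transposase cuts DNA that is not packed by nucleosomes, was applied to cells of pubertal ducts and of terminal end buds (TEBs), in which the ducts end while they elongate. The tissues were dissected from mammary glands of 5 week-old C57BL/6 females that carry an E-cadherin-GFP reporter, an allele shared by all 4 groups. Lin-CD29+CD24+ cells were sorted by reporter level into luminal (Ecad-GFP hi) and basal (Ecad-GFP lo) cells, so the lineages rest on the brightness of that reporter. Luminal duct, luminal TEB and basal TEB cells gave 3 libraries each and basal duct cells 2 (replicates 1 and 3), stated to be biological replicates, with no untreated or other control group beyond these 4 populations. The number of mice behind a library was not found in the labels or methods. The structure label describes the dissected region.

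Fibroblast growth factor receptors, the IGF1 and insulin receptors and MET are receptor tyrosine kinases that, once bound by ligand, signal through adaptor proteins to the RAS-ERK and PI3K-AKT cascades. In the mammary gland, FGFR2 in the epithelium and IGF1 from the stroma are known to be needed for ductal outgrowth at puberty, and hepatocyte growth factor from stromal cells drives branching of MET-expressing epithelium. Sprouty proteins are made in response to these receptors and dampen the ERK branch of the signal.

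Among the members, 92 peaks lay in introns, 40 upstream and 23 downstream of the gene, 12 at a promoter of the gene itself (within 500 bp of a TSS), 4 in coding exons, 2 in untranslated exon sequence and 1 at the promoter of *Zfp346*, a neighbour of *Fgfr4*. Of the 174, 132 were more than 10 kb from any protein-coding TSS. Their median width was 388 bp against 346 bp for all peaks, and 1.15% were mostly repeat sequence against 8.58% of all peaks. Levels are given as CPM, a count relative to the library total, scaled between the 11 libraries by trimmed mean of M values (TMM), a scaling that sets the typical peak equal across libraries. The members' mean levels ran from 0.68 to 49.7 CPM with a median of 3.67, and 16 peaks reached 20 CPM.

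The sequences shown are those of the peaks away from promoters that differed most between lineages or, in basal cells, between TEB and duct. They are the called peaks with the largest log2 fold change in each direction among those above the median level of all peaks and with groups that did not overlap. Each is 300 bases around the peak centre of the mm10 (GRCm38) reference, on the forward strand. Capitals mark a match, on either strand, to a motif in a set of 12 consensus motifs, none of which contains another, here AP-1 (TGANTCA), TEAD (GGAATG), FOX (TGTTTAC), RUNX (TGTGGTT) and SP/KLF (GGGCGG).
*Igf1r* intron, higher in basal than luminal duct, chr7:68134965-68135264: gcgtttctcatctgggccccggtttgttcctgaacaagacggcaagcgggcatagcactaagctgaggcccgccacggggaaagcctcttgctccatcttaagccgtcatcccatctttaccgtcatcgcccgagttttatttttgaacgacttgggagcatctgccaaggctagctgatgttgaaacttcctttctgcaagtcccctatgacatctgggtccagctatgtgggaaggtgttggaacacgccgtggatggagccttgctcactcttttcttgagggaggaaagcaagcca
*Met* coding exon, lower in basal than luminal duct, chr6:17492054-17492353: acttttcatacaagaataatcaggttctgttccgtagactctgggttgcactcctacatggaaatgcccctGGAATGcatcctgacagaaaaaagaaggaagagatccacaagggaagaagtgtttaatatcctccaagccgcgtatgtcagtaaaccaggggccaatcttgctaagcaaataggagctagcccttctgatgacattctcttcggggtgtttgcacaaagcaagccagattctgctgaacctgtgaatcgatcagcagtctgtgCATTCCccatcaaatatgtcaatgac
*Fgfr2* intron, higher in basal than luminal TEB, chr7:130259942-130260241: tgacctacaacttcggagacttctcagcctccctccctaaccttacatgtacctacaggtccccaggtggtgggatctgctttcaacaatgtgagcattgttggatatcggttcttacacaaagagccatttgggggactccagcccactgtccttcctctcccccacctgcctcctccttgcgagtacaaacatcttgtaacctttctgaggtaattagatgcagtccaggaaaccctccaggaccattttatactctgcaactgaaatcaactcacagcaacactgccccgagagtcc
*Fgfr2* intron, lower in basal than luminal TEB, chr7:130246946-130247245: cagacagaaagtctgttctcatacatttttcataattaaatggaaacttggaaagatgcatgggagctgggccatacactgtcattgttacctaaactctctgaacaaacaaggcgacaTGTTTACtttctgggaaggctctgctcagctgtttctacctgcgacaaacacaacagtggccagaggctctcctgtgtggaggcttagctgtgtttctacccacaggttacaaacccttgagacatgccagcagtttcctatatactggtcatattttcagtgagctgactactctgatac
*Igf1r* intron, higher in basal TEB than basal duct, chr7:68030824-68031123: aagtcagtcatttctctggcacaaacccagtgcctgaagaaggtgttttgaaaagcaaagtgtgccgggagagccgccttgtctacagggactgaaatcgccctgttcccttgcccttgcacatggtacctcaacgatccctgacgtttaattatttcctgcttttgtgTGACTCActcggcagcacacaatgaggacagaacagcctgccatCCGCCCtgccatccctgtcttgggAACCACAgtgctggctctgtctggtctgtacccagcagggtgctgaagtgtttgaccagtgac
*Met* intron, lower in basal TEB than basal duct, chr6:17506896-17507195: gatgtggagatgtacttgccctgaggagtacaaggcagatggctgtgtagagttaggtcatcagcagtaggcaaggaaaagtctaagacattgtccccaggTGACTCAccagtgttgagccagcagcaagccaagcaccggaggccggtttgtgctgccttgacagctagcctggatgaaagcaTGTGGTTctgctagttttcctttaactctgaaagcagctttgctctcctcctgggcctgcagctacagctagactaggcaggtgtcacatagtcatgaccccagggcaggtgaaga

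The *Igf1r* and *Fgfr2* peaks that were higher in basal cells held no match to any of the 12 motifs in these windows. The *Met* exon window held 2 TEAD matches, and the luminal *Fgfr2* window held a FOX match. Both the *Igf1r* peak that was higher in basal TEBs and the *Met* peak that was lower there held an AP-1 and a RUNX match, and the former also held an SP/KLF match. A match is a run of letters and no evidence of binding.

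Over all members, 22.99% held an AP-1 match against 25.85% of all peaks in windows of the same length, 22.99% a TEAD match against 21.21%, 10.34% a FOX match against 6.52%, and 9.2% a RUNX match against 7.92%. SP/KLF matches were in 18.39% of members and 14.44% of all peaks, and ETS matches (CCGGAAG) in 4.6% and 2.97%. The GRHL letters (AACCNGTT) were in 1.72% against 3.25%, and the letters AGATAAG of GATA factors in 1.72% against 3.38%. The CTCF consensus was in 1.72% against 1.46%, and the SRF CArG box in 1.15% against 1.57%. The NFI palindrome and the oestrogen response element were in none of the members, and in 0.06% and 0.1% of all peaks.

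Counts in peaks came to between 1821942 and 9986384 per library, and the 3 basal TEB libraries were the shallowest (1821942, 2489582 and 2040392). The median count per member peak was lowest in basal TEB libraries (6 to 9), followed by luminal TEB (10 to 11), luminal duct (12 to 14) and basal duct libraries (23 to 30). The share of counts in repeat-rich peaks was 7.03% to 16.17% in basal TEB and 2.4% to 2.45% in basal duct libraries. The share within 500 bp of a TSS was 31.13% to 35.71% in basal TEB and 40.05% to 42.73% in basal duct libraries. In luminal libraries the TSS share was 32.7% to 34.57% in TEB and 35.61% to 37.42% in duct. Their repeat-rich share was 5.58% to 7.21% in TEB and 4.46% to 5.96% in duct. Luminal totals were 2960093 to 3738324 in TEB and 4650216 to 5561051 in duct. Promoter peaks of 6 basal markers summed to 103.8 to 233.2 CPM in basal and 21.8 to 32.5 CPM in luminal libraries. Those of 7 luminal markers summed to 174.2 to 230.6 CPM in luminal, 99.8 to 112.8 CPM in basal duct and 49.6 to 62.6 CPM in basal TEB libraries. Both sums went with the lineage labels. By edgeR's exact test (adjusted p below 0.05), all 6 basal markers were higher in basal cells in both structures, and 5 of 7 luminal markers lower. In ducts *Krt8* (52.5 CPM in basal, 55.4 in luminal) and *Esr1* (10.2 and 7.44) were not called, and *Esr1* was higher in basal duct without overlap. In TEBs *Elf5* and *Esr1* were not called. Of 8 fibroblast markers 4 had a promoter peak, with sums of 84.7 to 99.9 CPM in basal duct, 42.4 to 52.4 CPM in basal TEB and 12.5 to 19.8 CPM in luminal libraries. For 2 of 5 endothelial markers the sums were 25.2 to 28.7, 17.6 to 22.5 and 4.5 to 7.6 CPM. For 4 of 5 pericyte markers the sums were 30.5 to 36.1 CPM in basal duct, 19.9 to 27.1 CPM in basal TEB and 15.5 to 21.7 CPM in luminal libraries. Of 5 immune markers 1 had a promoter peak, at 0.5 to 1.8 CPM in basal and 6 to 9.1 CPM in luminal libraries, and *Ptprc* was among those without one. The 1 of 4 adipocyte markers with a promoter peak was at 6.2 to 14.2 CPM in basal and 12.6 to 19.0 CPM in luminal libraries. The fibroblast and endothelial sums moved with lineage and with basal structure, highest in basal duct libraries. Pericyte sums were also highest in basal duct, but those of basal TEB (19.9 to 27.1 CPM) and luminal TEB (17.0 to 21.7 CPM) overlapped. By edgeR's exact test 0 endothelial and 0 pericyte markers were called between basal TEB and basal duct, against 3 of 4 fibroblast markers lower in TEBs. The fall was not particular to fibroblast markers, as 3 of 6 basal and 4 of 7 luminal markers were lower too. Of all promoter peaks 31.9% were lower. The part of these sums in the results was not tested. In bulk chromatin, fewer cells that open a site and less opening per cell cannot be told apart.

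The first comparison asked how the receptor and inhibitor loci differ between the basal and luminal lineages of the duct. In basal duct cells 75 of 174 member peaks (43.1%) were higher and 50 (28.7%) lower than in luminal duct cells (exact test in edgeR, Benjamini-Hochberg adjusted p below 0.05), against 31.8% higher and 36.6% lower among all peaks. The members' median log2 fold change was 0.58. Peaks that were called with groups that did not overlap made up 124 members (71.3%) and 67.1% of all peaks. In TEBs the split was 39 higher and 39 lower (22.4% each), against 16.6% and 20.8% of all peaks, with a median of 0.29. There 75 members (43.1%) were called with groups that did not overlap, as were 34.9% of all peaks. With TMM taken from TSS peaks alone, which moved the median of all peaks between basal and luminal duct from -0.10 to -0.41, the members' median was 0.28 and the split in ducts 62 higher and 54 lower.

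The counts in each direction differed from gene to gene. Among all peaks, 31.8% were higher and 36.6% lower in basal than luminal duct cells, and 16.6% and 20.8% in TEBs. For the FGF receptors, 41 of 82 peaks were higher in basal duct cells and 19 lower, and for *Igf1r* 22 of 38 were higher and 3 lower. For *Met* 2 of 14 peaks were higher and 10 lower, and for *Insr* 1 of 11 was higher and 7 lower. In TEBs these counts were 19 higher and 11 lower for the FGF receptors, 13 and 3 for *Igf1r*, 2 and 10 for *Met*, and 1 and 7 for *Insr*. The Sprouty genes had 9 of 29 peaks higher (31%) and 11 lower (37.9%) in ducts, shares near those of all peaks. In TEBs 4 were higher (13.8%) and 8 lower (27.6%). Median log2 fold changes between basal and luminal duct cells were 1.41 for *Fgfr3*, 0.94 for *Igf1r*, 0.71 for *Fgfr4*, 0.68 for *Fgfr1*, 0.57 for *Spry1*, 0.29 for *Fgfr2*, 0.03 for *Spry4*, -0.06 for *Spry2*, -1.88 for *Insr* and -2.71 for *Met*. Each comparison used its own libraries. By edgeR's exact test 34 members (19.5%, against 12.5% of all peaks) were higher in basal cells in both structures, 35 (20.1% against 18%) were lower in both and 0 (1.07% of all peaks) were called in opposite directions. A further 56 (32.2% against 36.8%) were called in the duct comparison alone, 9 (5.17% against 5.83%) in the TEB comparison alone and 40 (23% against 25.8%) in neither. A call in 1 structure alone is not a tested difference between the structures.

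**Figure D1:**
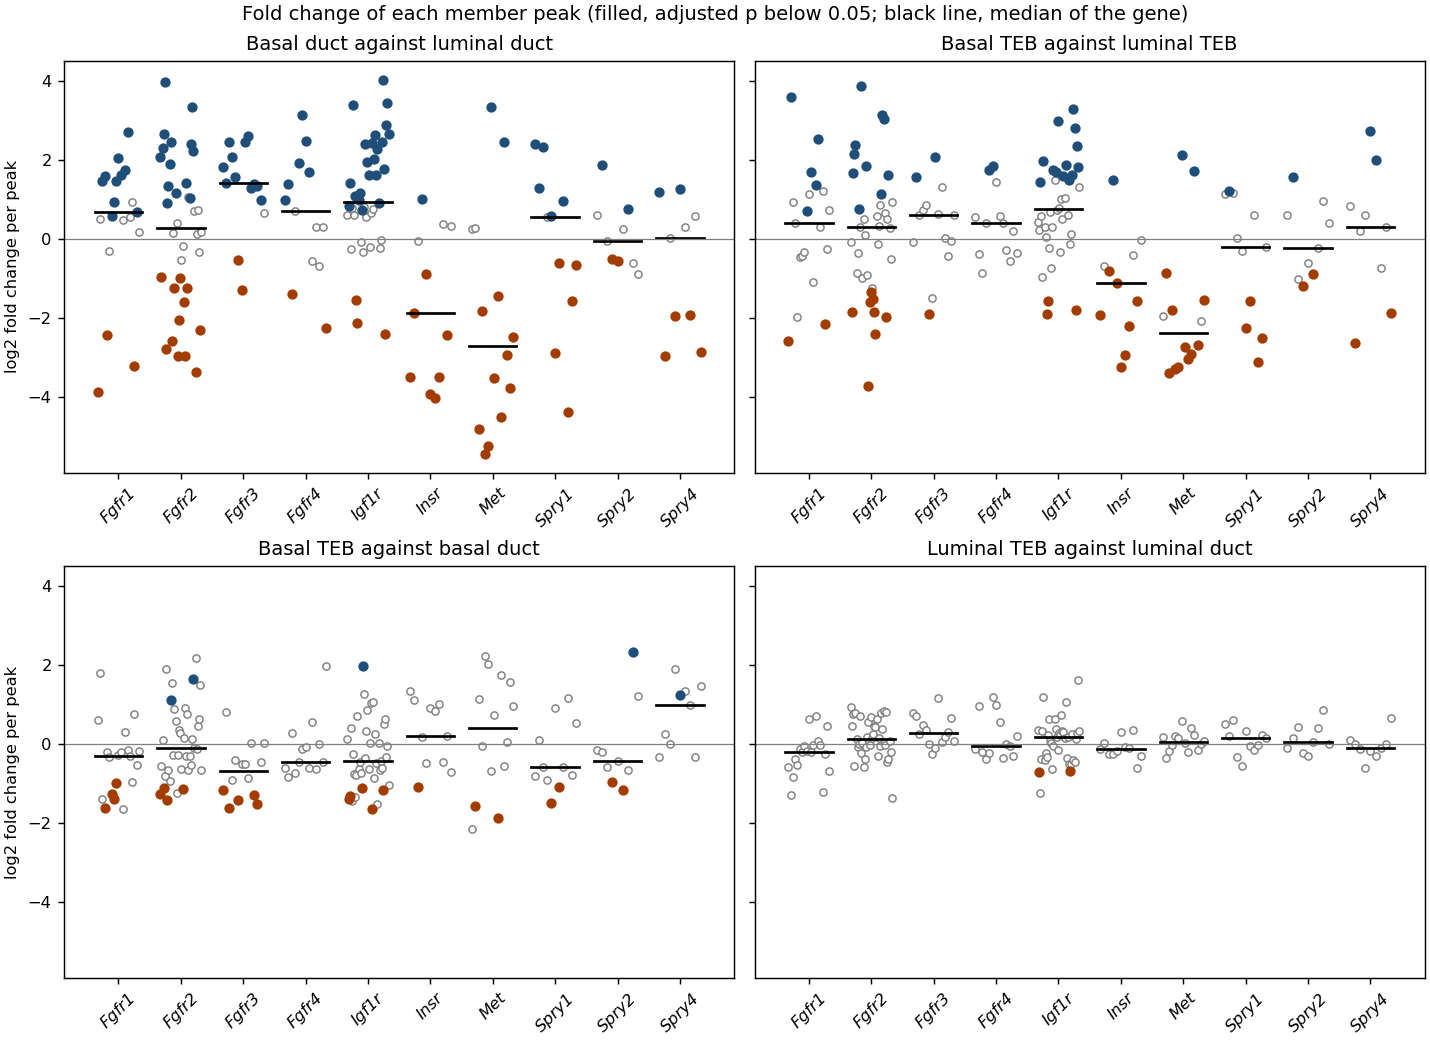
Log2 fold change of every member peak (points) by gene on the horizontal axis, for each pair of groups, with filled points for peaks past an adjusted p of 0.05 (blue higher, brown lower) and a black line at each gene's median. Most *Igf1r* and *Fgfr3* peaks lie above 0 and most *Met* and *Insr* peaks below 0 between basal and luminal duct cells, and called peaks between TEB and duct are mostly basal and below 0.

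Summed over its peaks, *Igf1r* had 348.2 CPM in basal duct, 243.0 in basal TEB, 177.5 in luminal duct and 145.5 in luminal TEB cells. *Fgfr2* had 261.3, 215.0, 141.5 and 161.2. The sums for *Fgfr1* were 204.9, 135.8, 117.3 and 103.0 CPM, for *Fgfr3* 120.5, 63.1, 48.1 and 58.2, and for *Fgfr4* 142.8, 103.7, 89.2 and 82.9, in the same order. Against these, *Met* had 109.2 CPM in basal duct and 149.4 in luminal duct cells, with 49.5 and 136.4 in the matching TEB cells. *Insr* had 99.6 and 143.0 in ducts and 68.5 and 127.6 in TEBs. *Spry1* summed to 112.8 and 112.9 CPM and *Spry2* to 111.3 and 116.5 CPM in basal and luminal ducts. *Spry4* stayed between 67.0 and 75.3 CPM in all 4 groups. These sums are levels, weighted towards the tallest peaks, and were given no test.

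The promoter of *Fgfr1*, a receptor for many FGFs (chr8:25518590-25519820), was at 39.1 and 34.0 CPM in basal duct libraries, 10.7, 20.3 and 14.2 in basal TEB, 22.7, 26.3 and 21.1 in luminal duct, and 20.6, 21.3 and 19.4 in luminal TEB libraries. Basal duct libraries were the highest with no overlap, and basal TEB replicates 1 and 3 were below every luminal library while replicate 2 lay among them. Basal duct exceeded luminal duct by a log2 fold change of 0.58 ± 0.14 (SE; n = 2 and 3; edgeR exact test, adjusted p = 0.00106). The tallest peak away from promoters was in an intron 18.4 kb into the gene (chr8:25536491-25537841), at 51.7 and 44.1 CPM in basal duct, 36.3, 47.4 and 41.2 in basal TEB, 15.7, 13.4 and 15.7 in luminal duct, and 11.3, 15 and 12.5 in luminal TEB libraries. All 5 basal libraries were above all 6 luminal ones, with log2 fold changes of 1.62 ± 0.14 in ducts (adjusted p = 5.22e-20) and 1.69 ± 0.16 in TEBs (adjusted p = 1.83e-09), while basal TEB and duct overlapped. In the other direction, a peak 35.1 kb upstream, outside the naming rule and picked after its values were seen, was at 0.912 and 1.23 CPM in basal duct, 2.04, 1.56 and 1.33 in basal TEB, and 8.23 to 17.2 CPM in the luminal libraries.

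*Fgfr2*, which in epithelium binds stromal FGF7 and FGF10, had 14 peaks higher (38.9%) and 12 lower (33.3%) in basal than luminal duct cells, shares near those of all peaks (31.8% and 36.6%). Its promoter (chr7:130264981-130266724) was at 64.9 and 52.1 CPM in basal duct, 27.6, 47.4 and 35.9 in basal TEB, 22.3, 28.0 and 15.3 in luminal duct, and 19.5, 23.8 and 23.1 in luminal TEB libraries. Basal exceeded luminal by 1.35 ± 0.29 in ducts (adjusted p = 1.27e-14) and 0.76 ± 0.24 in TEBs (adjusted p = 0.012) on the log2 scale, and basal TEB and duct did not pass the test (-0.66 ± 0.27, adjusted p = 0.0893). An intron peak 53.4 kb into the gene (chr7:130212937-130213784) was at 27.6 and 22.8 CPM in basal duct, 21.5, 30.9 and 30.6 in basal TEB, and 1.27 to 3.95 CPM in the 6 luminal libraries. It was higher in basal cells by 3.34 ± 0.38 in ducts (adjusted p = 1.38e-36) and 3.15 ± 0.28 in TEBs (adjusted p = 3.33e-18), with no overlap. The intron peak with a FOX match, 19.7 kb into the gene (chr7:130246953-130247239), was the reverse, at 0.616 to 1.48 CPM in the 5 basal libraries, 7.0, 11.8 and 6.02 in luminal duct and 11, 13.4 and 12.5 in luminal TEB libraries. Its log2 fold change, basal against luminal, was -2.96 ± 0.51 in ducts (adjusted p = 4.96e-14) and -3.72 ± 0.11 in TEBs (adjusted p = 1.12e-11).

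*Fgfr3*, which in cartilage restrains bone growth, had 11 of 14 peaks higher and 2 lower in basal than luminal duct cells, and 2 higher and 1 lower in TEBs. Its promoter (chr5:33721434-33722502) was at 26.3 and 21.7 CPM in basal duct, 10.2, 4.70 and 15.1 in basal TEB, 7.42, 11.8 and 6.66 in luminal duct, and 11, 10.4 and 7.90 in luminal TEB libraries. Basal duct stood above every other library, by 1.41 ± 0.28 over luminal duct (adjusted p = 5.60e-11), while basal and luminal TEB overlapped (0.02, adjusted p = 1). *Fgfr4*, best known in liver as the receptor for an endocrine FGF that restrains bile acid synthesis, had the lowest promoter level per length in luminal cells of the 10 genes. Its promoter (chr13:55152611-55153467) was at 16 and 15.9 CPM in basal duct, 11.8, 10.6 and 12.4 in basal TEB, 2.54, 5.04 and 4.3 in luminal duct, and 4.12, 2.73 and 3.29 in luminal TEB libraries. Basal libraries were higher without overlap in both structures, by 1.93 ± 0.26 in ducts (adjusted p = 1.70e-13) and 1.76 ± 0.16 in TEBs (adjusted p = 3.44e-05). The tallest *Fgfr4* peak away from promoters, 37.4 kb from its TSS and nearer to the TSS of *Nsd1*, was at 27.0 to 52.5 CPM in the 11 libraries and passed no test.

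*Igf1r*, the receptor for IGF1 and IGF2, had its promoter at chr7:67950823-67952491. It was at 58.0 and 56.8 CPM in basal duct, 12.8, 28.6 and 23.9 in basal TEB, 34.1, 29.1 and 28.8 in luminal duct, and 18.7, 22.7 and 14.8 in luminal TEB libraries. Basal exceeded luminal duct by 0.84 ± 0.08 (adjusted p = 2.52e-07), with basal duct libraries above all others, and the TEB groups overlapped (0.23, adjusted p = 0.57). The largest lineage difference towards basal cells was at the first sequence shown, 182.9 kb into the gene (chr7:68134831-68135399), with 21.3 and 18.8 CPM in basal duct, 6.13, 13.3 and 7.09 in basal TEB, and 0.273 to 1.37 CPM in the 6 luminal libraries. Basal libraries were above luminal ones by 4.04 ± 0.14 in ducts (adjusted p = 3.80e-38) and 3.30 ± 0.51 in TEBs (adjusted p = 4.48e-08). A neighbouring intron peak 202.5 kb into the gene was at 6.61 and 7.86 CPM in basal duct, 6.13, 10.6 and 3.99 in basal TEB, with luminal duct libraries at 0.373 to 0.860 and luminal TEB libraries at 1.37 to 2.63 (3.45 ± 0.22 in ducts, adjusted p = 1.76e-14).

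*Insr*, the insulin receptor and closest relative of *Igf1r*, had most of its called peaks higher in luminal cells. Its promoter (chr8:3278850-3280086) was at 36.9 and 30.5 CPM in basal duct, 20.4, 12.1 and 16 in basal TEB, 37.3, 30.0 and 32.9 in luminal duct, and 23.9, 29.2 and 31.6 in luminal TEB libraries. Duct libraries of both lineages overlapped (-0.04, adjusted p = 0.841) and basal TEB libraries were below all others (-0.81 ± 0.24 against luminal TEB, adjusted p = 0.0107). An intron peak 32.3 kb into the gene (chr8:3247077-3247562) was at 1.14 and 1.08 CPM in basal duct, 3.58, 0.391 and 2.66 in basal TEB, 13.1, 17.2 and 18.7 in luminal duct, and 21.4, 21.0 and 17.8 in luminal TEB libraries. Luminal libraries were higher without overlap, with basal against luminal at -3.91 ± 0.15 in ducts (adjusted p = 1.98e-31) and -3.24 ± 0.70 in TEBs (adjusted p = 6.05e-14). The tallest *Insr* peak away from promoters, 58.4 kb into the gene, was at 15.8 to 43.0 CPM and passed no test.

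*Met*, the hepatocyte growth factor receptor, had most of its peaks higher in luminal cells, but not that at its main promoter (chr6:17463286-17464598). The promoter was at 72.1 and 60.9 CPM in basal duct, 11.8, 30.1 and 24.8 in basal TEB, 54.1, 54.1 and 49.4 in luminal duct, and 36.2, 48.1 and 39.5 in luminal TEB libraries. Basal and luminal duct did not pass the test (0.28, adjusted p = 0.0882), although the 2 basal duct libraries were the highest, and basal TEB was below luminal TEB (-0.87 ± 0.42, adjusted p = 0.00607). The coding exon peak shown above, 28.9 kb into the gene (chr6:17491915-17492493), had 2 and 1 counts in basal duct, 2, 3 and 1 in basal TEB, 39, 50 and 28 in luminal duct, and 28, 41 and 22 in luminal TEB libraries. Scaled for depth, luminal duct was 40.4 times basal duct (95% exact interval of the count ratio 13.5 to 199) and luminal TEB 9.93 times basal TEB (4.39 to 27.8). Such intervals cover counting error only. An intron peak 12.8 kb into the gene had 5 and 0 counts in basal duct, 0, 3 and 2 in basal TEB, 44, 49 and 43 in luminal duct, and 20, 38 and 26 in luminal TEB libraries, a ratio of 28.2 (11.8 to 88.2) in ducts. A peak at an alternative *Met* TSS 28.3 kb into the gene, added after its values were seen, was at 0.114 and 0.308 CPM in basal duct, 1.02, 0.391 and 1.77 in basal TEB and 7.0 to 10.9 CPM in luminal libraries. All 5 basal libraries lay below all 6 luminal libraries at these 3 sites.

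Against this, 2 *Met* peaks were higher in basal cells in both structures. The one the naming rule gave, in an intron 31.4 kb into the gene (chr6:17494300-17495124), was at 13.7 and 12.6 CPM in basal duct, 7.67, 5.48 and 11.5 in basal TEB, and 1.07 to 2.31 CPM in luminal libraries. It exceeded luminal cells by 3.35 ± 0.12 in ducts (adjusted p = 3.85e-23) and 2.13 ± 0.34 in TEBs (adjusted p = 7.16e-05), so sites of opposite lineage lay within a few kb of each other in 1 gene.

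**Figure D2:**
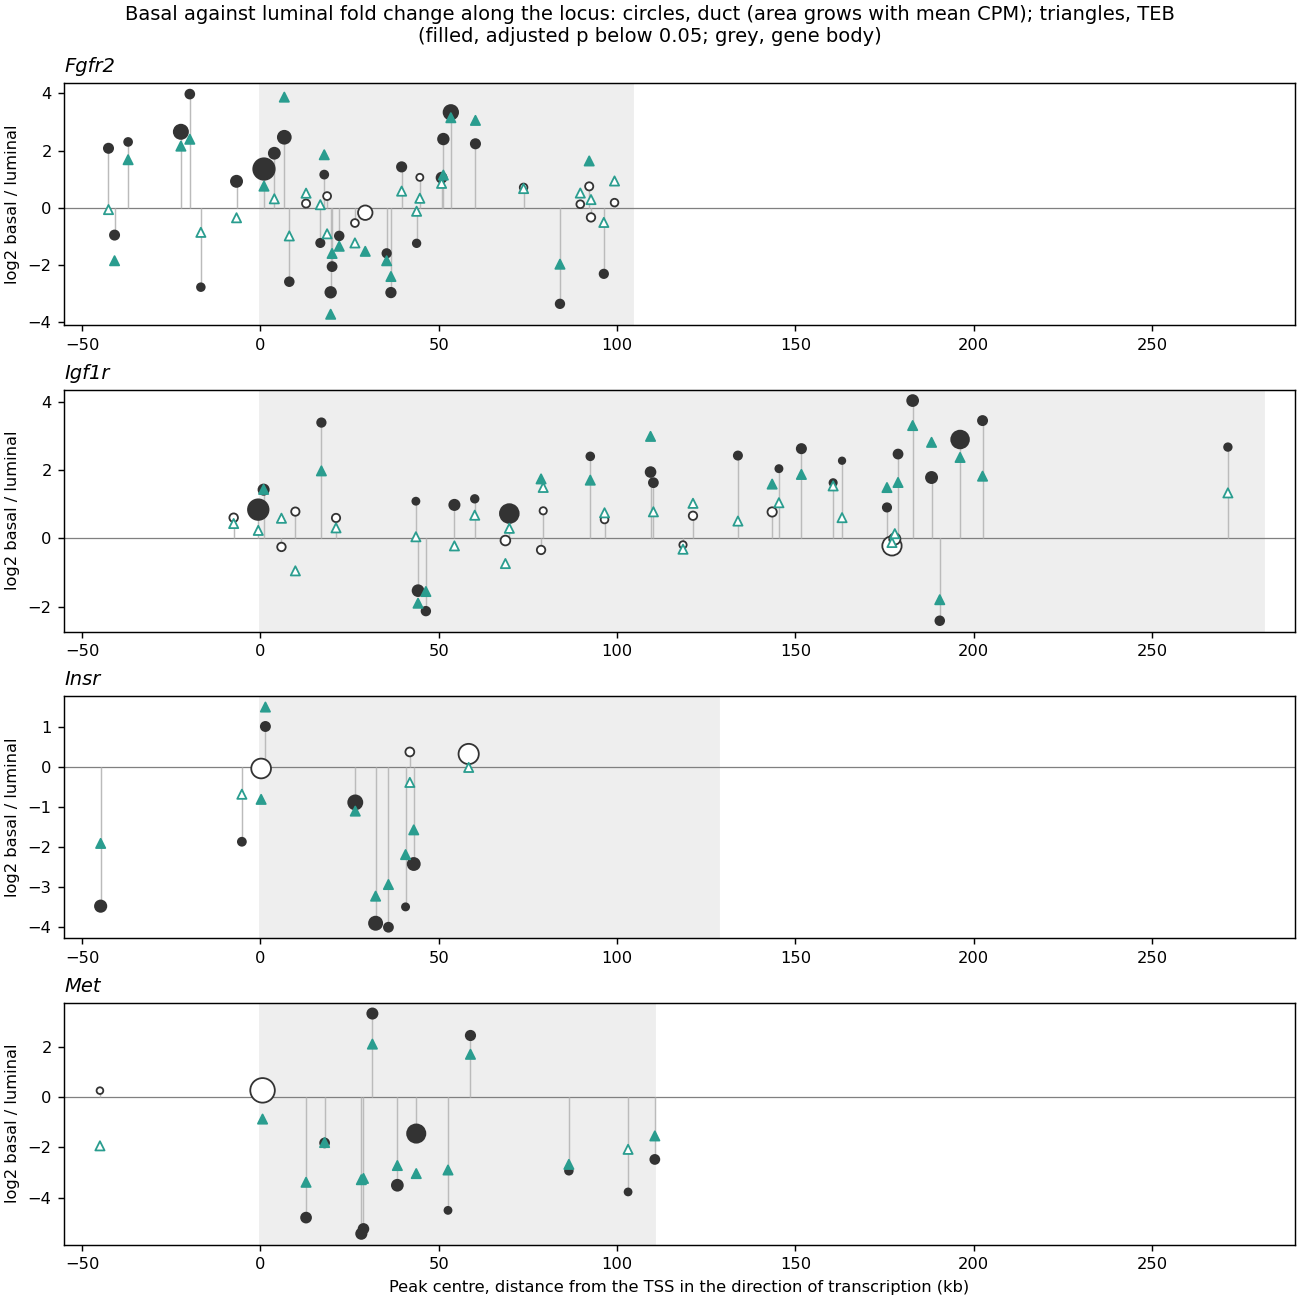
Member peaks of *Fgfr2*, *Igf1r*, *Insr* and *Met* by distance from the TSS in kb (horizontal axis), with the log2 fold change of basal against luminal cells on the vertical axis, as circles for ducts (area grows with mean CPM) and triangles for TEBs, filled where called, and the gene body in grey. Peaks of *Met* are mostly below 0 beyond its promoter, *Igf1r* peaks are mostly above 0 along the gene, and *Fgfr2* holds both.

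**Figure D3:**
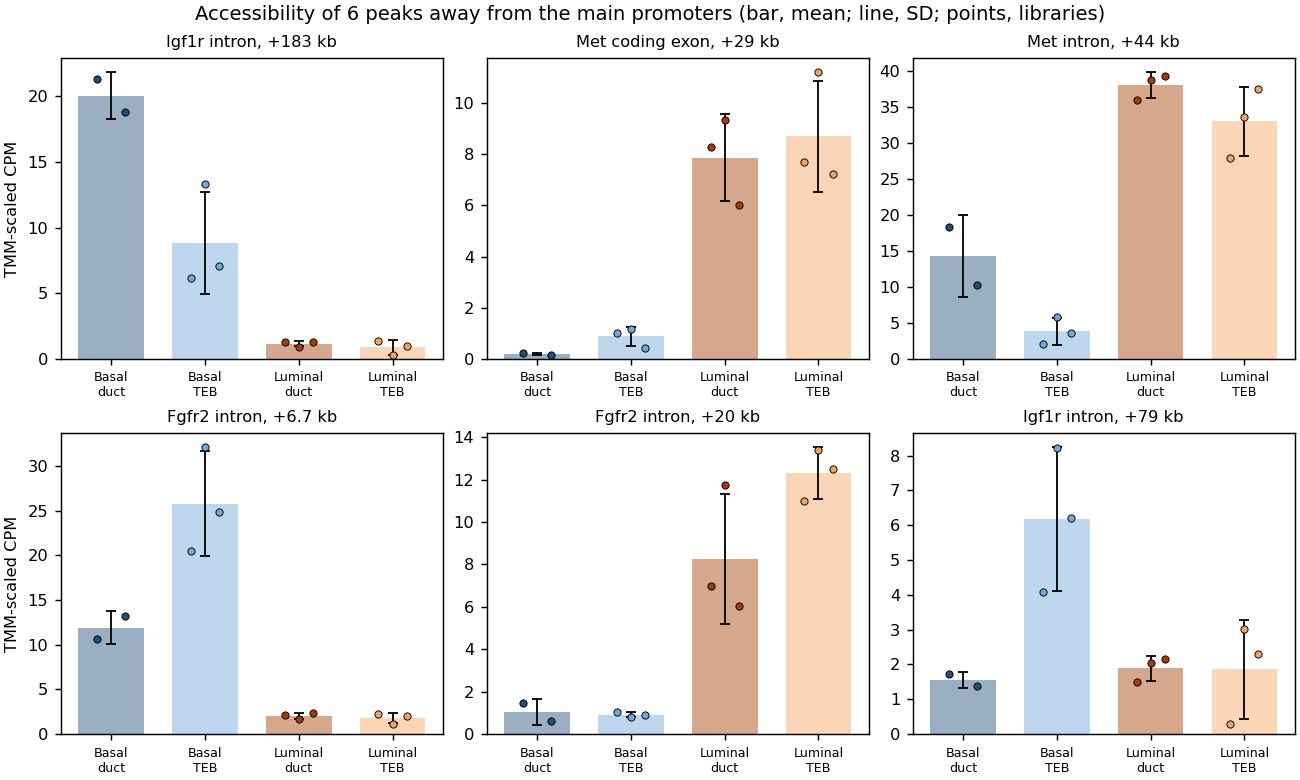
TMM-scaled CPM of the 6 peaks whose sequences are shown in each of the 11 libraries (points), with group means as bars and SD as lines. The *Igf1r* peak at 182.9 kb and the *Fgfr2* peak at 6.7 kb separate basal from luminal libraries without overlap, the *Met* peaks and the *Fgfr2* peak at 19.7 kb separate them in the other direction, and the *Igf1r* peak at 78.7 kb is highest in basal TEB.

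The Sprouty loci split by gene. The promoter of *Spry1* (chr3:37639688-37641202), an inhibitor of FGF-driven ERK signalling, was at 44.7 and 39.9 CPM in basal duct, 14.8, 18.8 and 11.1 in basal TEB, 26.7, 28.0 and 26.9 in luminal duct, and 17.3, 18.3 and 19.8 in luminal TEB libraries. Basal exceeded luminal duct by 0.58 ± 0.08 (adjusted p = 0.000788), with the basal duct libraries the highest of the 11. A downstream peak 34.1 kb from the TSS had 4 and 1 counts in basal duct, 2, 0 and 3 in basal TEB, 30, 43 and 29 in luminal duct and 25, 21 and 24 in luminal TEB libraries, a luminal to basal ratio of 21.1 (8.77 to 66.5) in ducts. The promoter of *Spry2* (chr14:105896956-105898079), another Sprouty antagonist of receptor tyrosine kinases, was at 48.7 and 43.4 CPM in basal duct, 22, 52.8 and 27.5 in basal TEB, 68.3, 65.1 and 60.8 in luminal duct, and 50.2, 57.4 and 50.7 in luminal TEB libraries. Luminal duct was the highest group, with a log2 fold change of basal against luminal of -0.55 ± 0.09 (adjusted p = 0.000621), and the basal TEB libraries were spread over 22 to 52.8 CPM. The promoter of *Spry4*, on chromosome 18, was at 32.1 to 45.6 CPM in all 11 libraries and was called in no pair (adjusted p = 0.512 to 1.0). A peak 30.5 kb upstream of *Spry4* was at 14.1 and 15.1 CPM in basal duct and 5.30, 5.78 and 7.31 in luminal duct libraries, higher in basal cells by 1.19 ± 0.14 (adjusted p = 1.36e-06).

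Between genes, promoter levels were compared per kb of peak width (RPKM). In basal duct cells *Met* was highest at 50.6 ± 6.07 (SD, n = 2), followed by *Spry2* at 41.0 ± 3.28, *Igf1r* at 34.4 ± 0.49 and *Fgfr2* at 33.6 ± 5.22, and *Fgfr4* was lowest at 18.6 ± 0.07. Between them lay *Fgfr1* (29.7 ± 2.89), *Spry1* (27.9 ± 2.23), *Insr* (27.3 ± 3.67), *Spry4* (26 ± 2.95) and *Fgfr3* (22.5 ± 3.04). *Fgfr2* overlapped *Spry2*, *Igf1r*, *Fgfr1*, *Spry1*, *Insr* and *Spry4* within their SDs. *Fgfr1*, *Spry1*, *Insr* and *Spry4* did not differ beyond their SDs, and *Fgfr3* overlapped *Insr* and *Spry4*. In luminal duct cells *Spry2* led at 57.6 ± 3.33 (SD, n = 3), then *Met* at 40.0 ± 2.05 and *Insr* at 27.0 ± 2.97, which overlapped *Spry4* at 24.5 ± 3.21. *Fgfr1* (19.0 ± 2.18), *Igf1r* (18.4 ± 1.80) and *Spry1* (18 ± 0.46) did not differ beyond their SDs. *Fgfr3* (8.06 ± 2.57) and *Fgfr4* (4.62 ± 1.49) had the lowest means, and *Fgfr3* overlapped both *Fgfr4* and *Fgfr2* (12.5 ± 3.65). In basal TEB cells *Spry2* was at 30.3 ± 14.6 RPKM and *Spry4* at 26 ± 1.19, followed by *Fgfr2* at 21.2 ± 5.68 and *Met* at 16.9 ± 7.20, and in luminal TEB cells the highest were again *Spry2* at 47.0 ± 3.56 and *Met* at 31.4 ± 4.67.

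**Figure D4:**
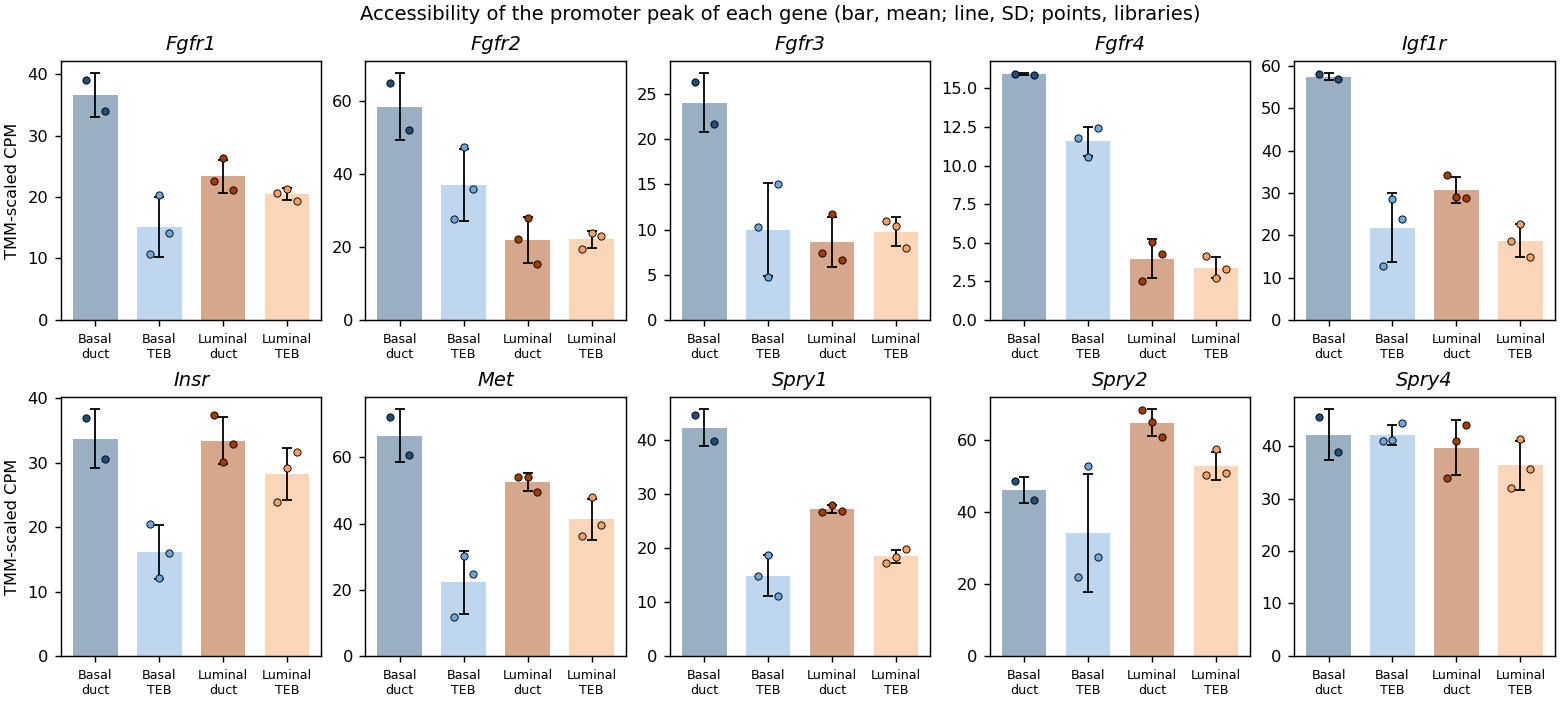
TMM-scaled CPM of the promoter peak of each gene in basal duct (n = 2), basal TEB, luminal duct and luminal TEB libraries (n = 3 each), with bars for means, lines for SD and points for libraries. The basal duct bar is above the basal TEB bar for the 9 genes other than *Spry4*, whose means are 42.2 and 42.1 CPM.

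The second question was how TEBs differ from ducts within each lineage. In basal TEB cells 5 of 174 members (2.87%) were higher and 25 (14.4%) lower than in basal duct cells by edgeR's exact test, against 8.22% higher and 9.73% lower among all peaks. The members' median log2 fold change was -0.30. All 30 called members, 17.2% of the 174, had groups that did not overlap, close to the 17.6% of all peaks that were called with groups apart. Of the 10 promoter peaks described above, 6 were lower (*Fgfr1*, *Fgfr3*, *Igf1r*, *Insr*, *Met* and *Spry1*) and 0 higher by the same test, 0 were higher by DESeq2 or at an unadjusted p below 0.05, and their median was -1.17. Over all promoter peaks 31.9% were lower and 0.673% higher, with a median of -0.64. Of the 161 members away from promoters, 5 were higher and 18 lower, against 9.14% and 7.03% of such peaks in the genome. The direction of these shifts rests on how libraries are scaled. With TMM taken from TSS peaks alone, the median of all peaks rose from 0.02 to 0.67 and that of all promoters from -0.64 to 0.02, the members' median went from -0.30 to 0.36, and 16 members were higher and 5 lower. With loess offsets by abundance, which were run with the quasi-likelihood test, the split was 10 and 10, against 6 and 26 by that test with TMM. Without basal duct replicate 1, the deeper of that pair, 0 members were higher and 1 lower (the *Met* promoter) by the exact test, and without replicate 3 they were 0 and 8. Depth, repeat share and TSS share moved with the structure in basal cells, as given above, and their part in these calls was not tested. Depth and TSS share also separated luminal duct from luminal TEB libraries, and basal duct from luminal duct libraries, without overlap. Their part in the calls of those comparisons was not tested either.

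At the promoters named as lower, the log2 fold changes of basal TEB against basal duct were -1.56 ± 0.42 for *Met* (adjusted p = 1.90e-05), -1.50 ± 0.23 for *Spry1* (3.67e-05), -1.38 ± 0.34 for *Igf1r* (0.000123), -1.28 ± 0.49 for *Fgfr3* (0.00305), -1.26 ± 0.28 for *Fgfr1* (0.000781) and -1.07 ± 0.25 for *Insr* (0.00500), by edgeR's exact test. *Fgfr4* (-0.46, adjusted p = 0.390) and *Spry2* (-0.42, adjusted p = 0.386) had lower means without passing it, and *Spry4* was level (-0.01). None of the 13 *Fgfr4* peaks was called in either direction by edgeR's exact test, its quasi-likelihood test or DESeq2. By the exact test 8.22% of all peaks were higher and 9.73% lower. At an unadjusted p below 0.05 the exact test gave 0 higher and 1 lower, the quasi-likelihood test 1 and 2, and DESeq2 0 and 0.

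Away from promoters, the intron peak of *Met* 43.7 kb into the gene, the last sequence shown (chr6:17506634-17507458), was at 18.3 and 10.3 CPM in basal duct, 2.04, 5.87 and 3.55 in basal TEB, 36.0, 38.8 and 39.3 in luminal duct, and 28.0, 33.6 and 37.5 in luminal TEB libraries. The order was luminal cells first, then basal duct, then basal TEB, with no overlap between these 3. It fell by 1.87 ± 0.56 on the log2 scale in basal TEBs (adjusted p = 0.000225). A peak 40.2 kb upstream of *Fgfr3* (chr5:33681022-33681967), nearer to the TSS of *Tacc3*, was at 17.8 and 15.7 CPM in basal duct, 3.58, 6.65 and 5.76 in basal TEB and 2.19 to 5.93 CPM in luminal libraries (-1.62 ± 0.26, adjusted p = 0.000294). Basal TEB libraries overlapped the luminal ones there. A peak 15 kb upstream of *Fgfr1* (chr8:25503504-25503999) also overlapped between basal TEB and luminal libraries, at 12 and 6.93 CPM in basal duct, 3.07, 3.91 and 2.22 in basal TEB and 2.19 to 4.11 CPM in luminal libraries (-1.62 ± 0.43, adjusted p = 0.00413).

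Higher in basal TEBs were 2 *Fgfr2* intron peaks, 1 *Igf1r* intron peak, 1 *Spry2* and 1 *Spry4* peak. The *Fgfr2* peak 6.7 kb into the gene (chr7:130259887-130260296), whose sequence is shown, was at 10.6 and 13.2 CPM in basal duct, 20.4, 32.1 and 24.8 in basal TEB, and 1.09 to 2.36 CPM in luminal libraries. Basal TEB libraries were the highest of all without overlap, at 1.13 ± 0.24 over basal duct (adjusted p = 0.00507) and 3.87 ± 0.30 over luminal TEB (adjusted p = 1.35e-21), with basal over luminal duct at 2.46 ± 0.20 (adjusted p = 4.33e-15). The *Fgfr2* peak 60.3 kb into the gene was at 4.79 and 1.85 CPM in basal duct and 13.8, 11 and 7.54 in basal TEB libraries (1.64 ± 0.64, adjusted p = 0.00269), and 0 to 1.64 CPM in luminal libraries. The *Igf1r* peak with AP-1, RUNX and SP/KLF matches, 78.7 kb into the gene, had 15 and 9 counts in basal duct and 8, 21 and 14 in basal TEB libraries, which after scaling were 1.71 and 1.39 against 4.09, 8.22 and 6.21 CPM. It was higher in basal TEBs by 1.98 ± 0.29 (adjusted p = 0.00322), and luminal libraries were at 0.274 to 3.01 CPM. The *Spry4* peak 17.2 kb downstream of the TSS was at 3.53 and 3.70 CPM in basal duct and 10.2, 4.70 and 11.1 in basal TEB libraries (1.24 ± 0.37, adjusted p = 0.0326). The *Fgfr2* pair and the *Igf1r* peak were called under all 10 settings of test, scaling and filter that kept every library, but none of the 5 was called once either basal duct library was left out.

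In luminal cells TEB and duct differed at 2 member peaks, both of *Igf1r* and both lower in TEBs, against 0.311% of all peaks higher and 0.455% lower. None was higher by edgeR's exact test or its quasi-likelihood test. DESeq2 also called 0 higher, but it withheld an adjusted p even from the *Igf1r* promoter, so its 0 adds nothing. At an unadjusted p below 0.05 the exact test gave 7 higher and 10 lower, the quasi-likelihood test 9 and 10, and DESeq2 3 and 9. The *Igf1r* promoter, with luminal duct at 34.1, 29.1 and 28.8 CPM and luminal TEB at 18.7, 22.7 and 14.8 as given above, fell by 0.70 ± 0.19 (adjusted p = 0.0229). The intron peak 177.1 kb into the gene (chr7:68128914-68129824), the tallest of *Igf1r* away from promoters, was at 32.7, 36.9 and 33.7 CPM in luminal duct and 17.8, 25.4 and 20.7 in luminal TEB libraries and fell by 0.69 ± 0.15 (adjusted p = 0.0196). Groups did not overlap at either site, so that 1.15% of members and 0.73% of all peaks were called with groups apart. The promoter call was lost with TMM from TSS peaks and with loess or GC-bin offsets (both with the quasi-likelihood test), and DESeq2 gave the promoter no adjusted p, while that of the intron peak was kept in all 10 settings. In basal cells this intron peak was at 34.2 and 27.4 CPM in duct and 13.3, 27.4 and 17.3 in TEB libraries. That log2 fold change of -0.66 ± 0.34 did not pass (adjusted p = 0.123), and the difference between lineages was 0.12 (adjusted p = 0.830). Leaving out luminal TEB replicate 1 or 3 or luminal duct replicate 1 or 2 left 0 lower members.

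**Figure D5:**
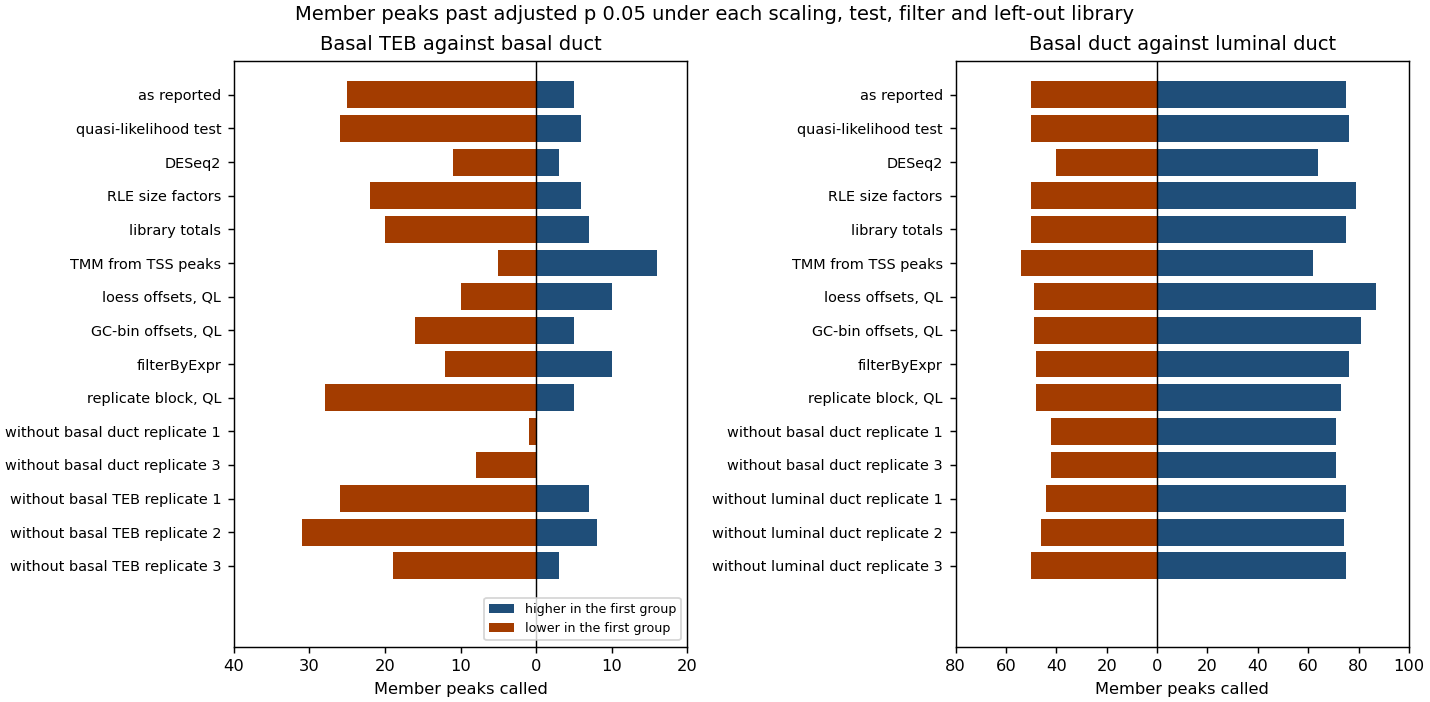
Number of member peaks called higher (right of 0) and lower (left of 0) under each test, scaling, filter and left-out library, for basal TEB against basal duct and for basal against luminal duct. The bars for basal against luminal duct keep about the same length throughout, whereas those for basal TEB against basal duct shrink to 0 higher and 1 lower without basal duct replicate 1 and lean to higher with TMM from TSS peaks.

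Whether the TEB effect differed between lineages was tested as an interaction (edgeR quasi-likelihood test over 11 libraries). Of 157 members past the filter on low counts, 1 (0.637%) was positive and 16 (10.2%) negative, against 7.54% and 6.47% of all peaks tested. *Fgfr3* had 6 negative members of 13 tested, *Fgfr2* 3, *Fgfr1*, *Met* and *Spry1* 2 each, and *Spry2* 1. Among the promoters *Fgfr3* (-1.39, adjusted p = 0.0152), *Met* (-1.13, adjusted p = 0.00627), *Fgfr1* (-0.98, adjusted p = 0.0210) and *Spry1* (-0.86, adjusted p = 0.0402) were negative, the fold change of TEB over duct being lower in basal than in luminal cells. Of all promoters 13.9% were negative and 1.08% positive. The smallest p among negative members was that of the *Met* peak 43.7 kb into the gene (-1.58, adjusted p = 0.00462). Next was a peak 16.3 kb upstream of *Fgfr3* (chr5:33704897-33705884), at 12.5 and 13.7 CPM in basal duct, 8.69, 7.04 and 6.21 in basal TEB, 1.27, 2.61 and 2.15 in luminal duct and 4.67, 4.64 and 4.61 in luminal TEB libraries (-1.96, adjusted p = 0.00584). There the means moved in opposite directions in the lineages, and neither change passed its own test (adjusted p = 0.0870 and 0.131). The positive member was the *Igf1r* peak 78.7 kb into the gene (2.1, adjusted p = 0.0465). With TMM from TSS peaks alone the interaction called 6 positive and 5 negative members. Without basal duct replicate 1 it called 0 positive and 3 negative members, which were 2 *Fgfr3* peaks and the *Met* promoter.

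The tallest peaks of *Spry1* and *Spry2* away from promoters were lower in basal than in luminal cells in both structures. The *Spry1* peak 14.3 kb from the TSS was at 26.3 and 28.5 CPM in basal duct, 6.13, 16.4 and 15.5 in basal TEB, 36.3, 47.6 and 35.7 in luminal duct and 31.6, 48.6 and 34.9 in luminal TEB libraries. Its log2 fold change of basal against luminal was -0.61 ± 0.14 in ducts (adjusted p = 0.000755) and -1.56 ± 0.48 in TEBs (adjusted p = 8.94e-07). The *Spry2* peak 2.0 kb upstream was at 18.3 and 15.9 CPM in basal duct, 5.62, 8.61 and 12 in basal TEB, 23.3, 23.5 and 23.6 in luminal duct and 17.8, 23.0 and 19.4 in luminal TEB libraries (-0.51 ± 0.10 in ducts, adjusted p = 0.00900, and -1.18 ± 0.32 in TEBs, adjusted p = 0.000679). At both, basal TEB libraries were the lowest of the 11, and basal duct libraries lay below the luminal ones at *Spry1* but overlapped them at *Spry2*. The tallest *Fgfr3* peak away from promoters, 26.6 kb upstream, had its lowest levels in basal TEBs too, at 11.5 and 9.09 CPM in basal duct, 4.60, 2.74 and 4.43 in basal TEB and 10.7 to 18.2 CPM in luminal libraries, and it fell in basal TEBs by 1.41 ± 0.27 against basal duct (adjusted p = 0.00845).

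Motif letters were also counted in the members called the same way in both lineage comparisons. None of the 34 basal members held a FOX match, against 2.2% of the 19160 such peaks in the genome, whereas 8 of the 35 luminal members (22.9%) did, against 15% of 27639. AP-1 matches were in 17.6% of basal members (all such peaks 18.5%) and 31.4% of luminal members (42.6%), and TEAD matches in 23.5% (26.5%) and 20% (19.0%). These are counts of letters in windows of equal length, given as a description without a test.

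Of 81 other genes of these pathways, 74 had a promoter peak. In basal against luminal duct 44 of these 74 were higher and 4 lower, whereas over all promoters 43.8% were higher and 12% lower. The median was 0.45 against 0.35 for all promoters. Co-receptors, decoys and ligand carriers had 17 of 19 higher, ligands 11 higher and 1 lower, adaptors 9 of 18 higher, feedback inhibitors other than the members 2 of 8, targets and effectors 4 of 9 higher and 1 lower, and proteins of HGF activation 1 higher and 2 lower of 4. Medians were 1.23, 0.82, 0.32, 0.08, 0.35 and -0.29 in that order, so adaptors and targets were near all promoters and feedback inhibitors below them. *Igfbp3*, which binds IGFs, had means of 33.8 ± 5.27 CPM in basal duct (SD, n = 2), 19.6 ± 5.23 in basal TEB, 1.87 ± 0.677 in luminal duct and 3.33 ± 0.775 in luminal TEB cells (n = 3 each; 4.08 in ducts, adjusted p = 1.14e-55). *Sulf1*, a sulfatase that trims heparan sulfate, the co-receptor of FGFs, was at 32.2 ± 0.684, 22 ± 4.73, 3.14 ± 0.453 and 2.1 ± 0.573 CPM in that order (3.30, adjusted p = 7.92e-44). *Spint1*, an inhibitor of the proteases that activate hepatocyte growth factor, was higher in luminal cells (24.2 ± 0.480, 13.0 ± 0.949, 42.7 ± 9.73 and 41.4 ± 5.81 CPM; -0.89 in ducts, adjusted p = 1.50e-06), as was *Etv1*, an ERK-responsive transcription factor (-0.42, adjusted p = 0.00844).

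Between basal TEB and basal duct 32 of these 74 promoters were lower and 0 higher by edgeR's exact test (44 and 0 at an unadjusted p below 0.05), against 31.9% and 0.673% of all promoters, with a median of -0.77 against -0.64. *Fgf2* had 34.6 ± 6.85 CPM in basal duct and 11.2 ± 1.40 in basal TEB cells (-1.64, adjusted p = 1.19e-05). *Gab2*, a docking adaptor for these receptors, had 35.5 ± 1.59 and 12 ± 4.83 (-1.54, adjusted p = 4.68e-05). In luminal cells 3 were lower in TEBs and 0 higher (11 and 0 at an unadjusted p below 0.05), against 1.26% and 0.114% of all promoters. They were *Pik3ca* (-0.57, adjusted p = 0.0202), *Grb10* (-1.05, adjusted p = 0.0227) and *Etv1* (-0.55, adjusted p = 0.0263), *Etv1* falling outside the naming rule. In basal against luminal TEBs 12 were higher and 9 lower, against 10.4% and 14.7% of all promoters. The interaction was positive for 0 and negative for 13 of 72 (0 and 24 unadjusted), against 1.08% and 13.9% of all promoters.

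The promoters most like each member over the 11 libraries were listed by Pearson r of log2 CPM, which share libraries, depth and scaling. For *Fgfr1* they were *Trim44* (0.983) and *Zfyve16* (0.982), for *Fgfr2* *Fosl1* and *Ubxn7* (0.971 each), for *Fgfr3* *Lzts1* (0.934) and *Cdc37l1* (0.932), and for *Fgfr4* *Itga8* (0.982) and *Sapcd2* (0.972). For *Igf1r* they were *Cops3* (0.970) and *Tubgcp3* (0.969), for *Insr* *Tbc1d12* (0.975) and *Sema3f* (0.974), and for *Met* *Rabgef1* and the shared promoter of *Chpf* and *Tmem198* (0.987 each). For *Spry1* they were *Ezh2* (0.980) and *Cep85l* (0.977). For *Spry2* they were *Tceanc* (0.983) and *Zscan22* (0.982), and for *Spry4* *Cltc* (0.822) and *Erf* (0.778). At an r of 0.9 or more, *Met* had 910 such promoters of 8314, *Fgfr1* 533, *Fgfr3* 10 of 8315 and *Spry4* 0.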

How the data were processed

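Per the labels and the study's methods, ATAC-seq reads were trimmed, mapped to mm10 with Bowtie2 (version 2.3.4.3 in the submitters' processing notes) and stripped of duplicates. Peaks were called with MACS2 on replicates pooled within each population, merged across populations and cleared of blacklisted regions. The authors deposited read counts per merged peak for each of the 11 libraries, as raw whole numbers. Because peaks were merged across populations, a site open in 1 population was counted in all.

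Members were assigned with RefSeq gene bodies and TSSs (GRCm38.p6), since 1 GENCODE vM21 transcript of *Fgfr2* starts 2.86 Mb from the others and was dropped, and promoters of all genes used 41420 protein-coding TSSs. The fits of pairs covered every peak with a count in the pair (153358 to 153396 peaks). The interaction covered the 126832 peaks past the filter on low counts. Pairs of groups were compared with the exact test of edgeR 4.0.16 (R 4.3.3; TMM within the pair, Benjamini-Hochberg over all peaks with a count, adjusted p below 0.05), as in the study's methods, and the interaction with its quasi-likelihood test. Errors of log2 fold changes (± SE) come from the spread of log2 CPM with a prior count of 2 over the libraries of a group. Every p-value rests on the spread between libraries, which are stated to be biological replicates. In edgeR the spread of a peak is estimated partly from that of other peaks, so p and SE do not measure the same spread. Neither the labels nor the methods say whether libraries shared mice. DESeq2 1.42.0, other scalings, filters, assignments, a replicate block and leaving out each library were alternatives, and the steps were tested on simulated data. Named peaks were the promoter and the tallest other peak of each gene, up to 3 peaks per direction and comparison with the largest fold change among called, non-overlapping peaks above the median level, and 2 per direction for the interaction. The members, lists and naming rule were chosen with earlier results of these data known. Library totals set the precision: a count of 1 in a peak was 0.114 CPM in the deepest and 0.511 CPM in the shallowest library.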

Additional observations from a re-analysis of the deposited data

Results flagged for a closer look

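Among the named peaks, 10 had a TEB effect that differed between basal and luminal cells by the interaction test (edgeR quasi-likelihood test over 11 libraries, adjusted p below 0.05), given as the log2 fold change in basal cells minus that in luminal cells. Promoter values were -1.39 for *Fgfr3*, -1.13 for *Met*, -0.98 for *Fgfr1* and -0.86 for *Spry1*. Away from promoters they were -1.96 for the peak 16.3 kb upstream of *Fgfr3*, -1.82 for that 40.2 kb upstream, -1.35 for that 26.6 kb upstream, -1.58 for the *Met* intron peak at 43.7 kb and -0.94 for the peak 14.3 kb downstream of the *Spry1* TSS. The *Igf1r* intron peak at 78.7 kb had the positive value, 2.1. The basal TEB libraries of this test were the shallowest, and without basal duct replicate 1 the interaction called 0 positive and 3 negative members.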

How the results depend on the processing

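Basal against luminal counts stayed within 1.5 times those reported in every alternative run, leaving out single libraries included: 58 higher and 38 lower members in ducts, and 25 and 29 in TEBs, were called in all 10 settings that kept every library. For basal TEB against basal duct, the 5 higher and 25 lower members became 3 and 11 with DESeq2, 10 and 12 after filterByExpr, 10 and 10 under loess offsets (with the quasi-likelihood test, 6 and 26 by itself) and 16 and 5 where TSS peaks alone set TMM. Offsets by GC bin left 16 lower, and 3 were higher among peaks in the gene body or within 10 kb. Called in all 10 settings were 3 higher (*Fgfr2* at 6.7 and 60.3 kb, *Igf1r* at 78.7 kb) and 4 lower (the *Met* and *Spry1* promoters, *Met* at 43.7 kb and *Fgfr3* 40.2 kb upstream). The 2 members lower in luminal TEBs became 1, the *Igf1r* intron peak at 177.1 kb, with DESeq2 (which gave the *Igf1r* promoter no adjusted p), GC-bin offsets, TMM from TSS peaks or loess offsets. For the interaction, the 1 positive member became 0 with DESeq2 or without the filter, 4 with DESeq2-type size factors, 2 under loess offsets, 3 with library totals and 6 where TSS peaks set TMM, and the 16 negative ones 5 with DESeq2 or TMM from TSS peaks, 6 with loess offsets and 10 in the gene body or within 10 kb. The *Spry4* promoter, at -0.01 for basal TEB against duct and 0.03 for basal against luminal duct, turned to 0.66 (TMM from TSS peaks) and 0.53 (loess) in the former and -0.31 (GC bins) in the latter, without a call as reported. The cause of these shifts was not tested. Leaving out single libraries gave 0 to 8 higher and 1 to 31 lower members for basal TEB against duct, 0 to 0 and 0 to 3 for luminal TEB against duct, 71 to 75 and 42 to 50 for basal against luminal duct, 26 to 36 and 31 to 37 for basal against luminal TEB, and 0 to 4 positive and 3 to 20 negative for the interaction. Same-numbered libraries deviated together by an r of at most 0.095, and every luminal TEB library was closest to the luminal duct library of its number. The labels do not say whether the numbers pair the libraries, and the reported tests used no pairing. With the replicate number as a block, calls were 5 higher and 28 lower for basal TEB against duct (4 and 23 of them shared with the fit without it), 0 and 4 for luminal TEB against duct, 73 and 48 and 36 and 37 for the lineage comparisons in ducts and TEBs, and 1 and 15 for the interaction. Over all peaks, luminal TEB against duct had 1049 higher and 1702 lower with the block, against 439 and 631 by the quasi-likelihood test without it. These counts were 12913 and 16550 against 14343 and 16105 for basal TEB against duct. For basal against luminal cells they were 44824 and 53862 against 49095 and 56972 in ducts. In TEBs they were 21658 and 29470 against 24961 and 31201. Of the summed levels of each gene and group, 30 of 40 moved by less than 1 SD with library totals in place of TMM, and 10 by more. Median counts of 6 to 9 per member peak limit what basal TEB libraries can show.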

Other observations

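Of the 174 members, 38 (21.8%, against 22.6% of all peaks) were called in no comparison between pairs of groups, and 3 of these had mean levels of 20 CPM or more: the *Spry4* promoter, the *Fgfr4* peak 37.4 kb from its TSS and the *Insr* intron peak at 58.4 kb. A missed threshold does not show that the groups are equal.

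Of the other pathway genes, the ligand gene *Fgf20* shared its peak with *Micu3* and the adaptor gene *Shc1* with *Cks1b*, so those values cannot be assigned to 1 gene.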
